A study of Mus musculus with 9 samples.

Results

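Chemokines, interleukins and colony-stimulating factors were followed across 3 genotypes of mouse embryonic fibroblasts (MEFs), cells grown out of embryonic connective tissue. Members were the genes of the deposited tables named Ccl, Cxcl, Cx3cl or Xcl with a number, Il with a number and at most 1 letter from a to e, together with *Csf1*, *Csf2*, *Csf3*, *Lif* and *Tnf*. The rule found 71 of the 24341 listed genes, of which 34 encode chemokines. Poly(A) RNA of 3 WT, 3 Atm-/- and 3 Sirt6-/- samples had been sequenced, each table giving a read count and an RPKM (reads scaled by gene length and by library size) for every gene. Atm is the kinase that signals DNA double-strand breaks, and Sirt6 is a chromatin deacetylase that depends on NAD+. All 9 samples carried the strain label C57BL/6 and were grown in DMEM with 10% serum, with no further treatment named. The submitters' protocol names P53-/- and Atm-/-P53-/- mice among the sources of MEFs without tying them to a sample. The study's methods list primary MEFs and 2 immortalised lines received from other laboratories, 1 lacking both Atm and p53 and 1 lacking Sirt6. Line and knockout therefore cannot be told apart in either knockout. In Atm-/-, where RNA of the p53 gene *Trp53* was low, p53 status cannot be told apart from them either. In Sirt6-/- that RNA was above WT, and p53 status is not stated. The labels do not say whether the 3 samples of a genotype were separate cultures, so the p-values measure the spread between these samples, which may be technical.

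Chemokines are small secreted proteins that draw leukocytes towards their source through receptors of the G protein-coupled class. CXC chemokines with a glutamate-leucine-arginine (ELR) motif act mainly on neutrophils through Cxcr2, whereas most CC chemokines act on monocytes, lymphocytes or eosinophils. Interleukins and colony-stimulating factors govern the survival, growth and activation of leukocytes. Fibroblasts are a known source of several of them, among which *Cxcl12* and *Csf1* are made constitutively and *Il6*, *Cxcl1* and *Ccl2* are induced in inflammation and in the secretory state of senescent cells. Transcription of the inducible genes depends largely on NF-kB.

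Libraries held 32187040 to 33837949 counts, and members took 0.173 to 0.548% of them. Levels are counts scaled to library size (CPM), with TMM factors over the 9 samples, and 3 counts in a library corresponded to 0.0887 to 0.0932 CPM. *Sirt6* stood at 15.3, 12.9 and 15.0 CPM in WT, 12.2, 11.1 and 10.7 in Atm-/- and 0.123, 0.154 and 0.210 in Sirt6-/-. *Atm* stood at 48.2, 51.7 and 51.6 CPM in WT, 109, 102 and 102 in Atm-/- and 73.3, 72.4 and 62.1 in Sirt6-/-. A gene total does not show a deleted exon, so the *Atm* counts do not check that label. *Trp53*, which encodes p53, was at 208 to 227 CPM in WT, 23.2 to 27.4 in Atm-/- and 276 to 282 in Sirt6-/-. Summed over 10 fibroblast markers the level was 30400 to 33700 CPM in WT, 9414 to 9708 in Atm-/- and 19460 to 20020 in Sirt6-/-. Among these markers *Lum* was at or near 0 in every sample, and *Thy1* was at 0.0307 to 1.02 CPM in Sirt6-/-. Of 9 tested with edgeR, 8 were lower in Atm-/- and 7 in Sirt6-/- at an adjusted p under 0.05, beside 33.6% and 37.4% of all genes. The rest were higher, *Thy1* in Atm-/- (1.83 on the log2 scale) and *Col1a2* and *Pdgfrb* in Sirt6-/- (0.72 and 1.31). The 13 leukocyte markers measured summed to 20.97 to 27.62 CPM over all samples, with *Ptprc*, which marks all leukocytes, at 0.190 CPM or less and *Cd3e* and *Ms4a1* at 0. Single markers moved within that sum. *Csf1r*, a receptor gene of macrophages, stood at 7.38 to 7.90 CPM in WT, 0.606 to 0.886 in Atm-/- and 1.499 to 2.97 in Sirt6-/-. Its log2 changes were -3.43 and -1.86 (edgeR adjusted p = 2.02e-09 and 2.01e-06). *Cd14*, a lipopolysaccharide co-receptor of monocytes, was at 5.40 to 6.48 CPM in WT, 15.1 to 17.2 in Atm-/- and 14.4 to 18.2 in Sirt6-/-, log2 rises of 1.42 and 1.41 (edgeR adjusted p = 8.79e-08 and 1.53e-07). *S100a8* rose in Atm-/- by 2.40 (edgeR adjusted p = 0.00433) while staying under 1 CPM, *Cd68* fell in Sirt6-/- by 1.11 (edgeR adjusted p = 0.00125) from 2.95 to 3.79 CPM to 1.17 to 2.04, and *Lyz2* was at 3.40 to 4.76 CPM in all samples. The 6 epithelial markers summed to 86.38 to 93.41 CPM in Atm-/- and 18.5 to 23.64 in the other genotypes, with *Krt19* at 42.1 to 48.7 CPM in Atm-/-. That sum lay mainly in *Krt19* and *Krt18*, with means of 46 and 28.16 CPM in Atm-/- and 2.135 and 7.207 in WT. *Cdh1* was also higher in Atm-/- (4.133 against 2.302), whereas *Krt8* and *Epcam* were not called (edgeR adjusted p = 0.185 and 0.88). The 5 endothelial markers summed to 9.804 to 12.46 CPM in Atm-/-, 3.111 to 5.146 in WT and 0.6488 to 0.9896 in Sirt6-/-. *Kdr*, the only 1 of the 5 with enough reads to be tested, had means of 10.98, 3.373 and 0.2225 CPM in that order. The part of these shifts in the cytokine values was not tested, and in bulk RNA fewer expressing cells and less RNA per cell cannot be told apart.

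The ELR chemokine genes among the members lie together on chromosome 5 in the order *Cxcl5*, *Cxcl3*, *Cxcl15*, *Cxcl1* and *Cxcl2*, spanning 146.6 kb from base 90759298 to base 90905938 (GRCm38.p6). Genes that the name rule does not match are left out of this order. The bases just upstream of the RefSeq starts of 4 of them, on the plus strand, are shown because these neighbours differed in level by large factors, with *Il6* of the same chromosome and *Csf1* of chromosome 3 (minus strand) for comparison. Capitals mark matches to the NF-kB letters (GGG, then any 2 bases, then TTTCC) on either strand.
Cxcl3, chr5:90785981-90786100: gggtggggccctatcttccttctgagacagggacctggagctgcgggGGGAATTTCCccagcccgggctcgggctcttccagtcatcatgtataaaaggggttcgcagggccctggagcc
Cxcl15, chr5:90794414-90794533: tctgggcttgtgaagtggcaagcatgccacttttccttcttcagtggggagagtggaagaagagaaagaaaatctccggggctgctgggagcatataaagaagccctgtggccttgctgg
Cxcl1, chr5:90891125-90891244: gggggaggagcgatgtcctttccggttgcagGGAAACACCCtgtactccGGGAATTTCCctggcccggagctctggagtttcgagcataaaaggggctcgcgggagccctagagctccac
Cxcl2, chr5:90903779-90903898: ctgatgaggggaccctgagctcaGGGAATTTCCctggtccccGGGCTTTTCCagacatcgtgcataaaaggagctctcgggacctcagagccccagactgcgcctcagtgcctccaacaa
Il6, chr5:30012964-30013113: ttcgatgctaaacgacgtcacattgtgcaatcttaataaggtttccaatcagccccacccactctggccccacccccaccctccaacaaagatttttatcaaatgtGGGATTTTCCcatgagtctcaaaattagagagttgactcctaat
Csf1, chr3:107760470-107760649: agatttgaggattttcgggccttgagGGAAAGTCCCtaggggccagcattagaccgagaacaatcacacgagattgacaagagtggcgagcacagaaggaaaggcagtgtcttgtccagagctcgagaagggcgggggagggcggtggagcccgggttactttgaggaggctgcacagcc
The matches begin 89 and 71 bases before the start in *Cxcl1*, 97 and 78 in *Cxcl2*, 73 in *Cxcl3*, 44 in *Il6* and 154 in *Csf1*. RefSeq promoter windows of 300 bases were matched for 50 of the 71 genes. *Cxcl5*, *Ccl2* and *Ccl7* were among the genes without a window and were not searched. The NF-kB letters occurred in the windows of 9 of the 50, *Ccl9*, *Ccl20*, *Il9* and *Il16* being the others, and for 1.895% of all 27025 genes with a window (1.629% of all 32851 windows). The AP-1 letters TGANTCA were found for 11 of the 50 members and for 8.973% of all genes, the C/EBP letters TTGCNNAA for 7 and for 12.2%, and the TATA box letters TATAAA for 19 and for 15.67%, both strands being read. A match is a run of letters and not a shown binding site.

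WT fibroblasts were dominated by the constitutive pair. By RPKM, which allows genes of unlike length to be compared, *Csf1* stood highest at 542.1 ± 33.62 (SD, n = 3), ahead of *Cxcl12* at 365.2 ± 20.3 and *Ccl2* at 154.7 ± 16.98, each step being larger than the ranges of the samples. *Ccl7*, *Cxcl1*, *Lif*, *Cx3cl1* and *Ccl25* followed, and the ranges of *Ccl25*, *Il6* and *Ccl20* overlapped along that order. *Cxcl12* made up 56.42% and *Csf1* 34.34% of the summed CPM of all members. In Sirt6-/- the order opened with *Cxcl1* at an RPKM of 2222, then *Ccl2* at 866.7, *Ccl7* at 438.1, *Csf1* at 289.7 and *Cxcl5* at 220.3. In Atm-/- it opened with *Csf1* at 253.2 and *Ccl2* at 206.5, followed by *Il33* at 83.56 and *Ccl7* at 71.61, whose ranges overlapped. Summed over the members, the level was 3892 ± 137 CPM in WT, 1665 ± 21.8 in Atm-/- and 5314 ± 193 in Sirt6-/-, and the 3 ranges did not overlap.

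**Figure D1:**
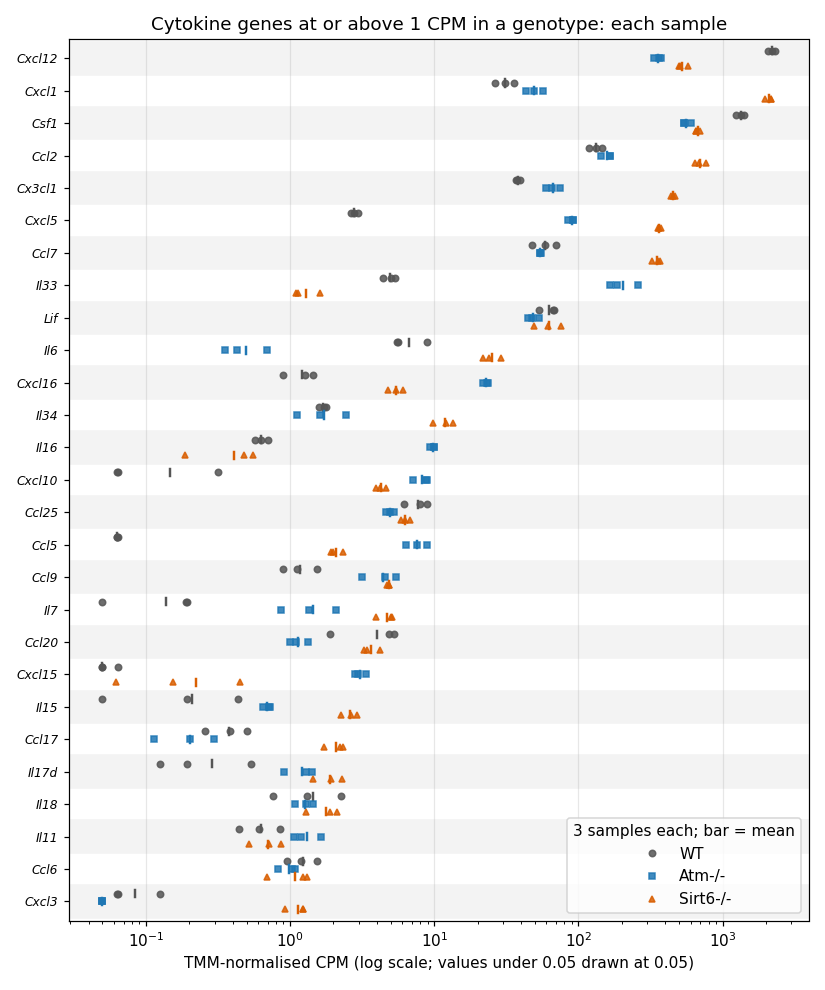
TMM-normalised CPM of the 27 member genes with a mean of at least 1 CPM in a genotype, in every sample on a log axis, with a bar at the mean of the 3 samples (values under 0.05 are drawn at 0.05). Cxcl12 and Csf1 were highest in WT, Cxcl1 was highest in Sirt6-/- at 1973 to 2178 CPM, and Il33 was highest in Atm-/- at 166 to 258 CPM.

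Of the 71 members, 18 had no read in any sample and 20 had reads but passed the filter on low counts in no comparison, the highest of these summing to 58 counts over 9 samples. *Tnf*, the archetypal inflammatory cytokine, had 9 reads in all and *Il1b* had 4. The 33 that passed in at least 1 comparison were tested with edgeR (quasi-likelihood), p-values being adjusted by Benjamini-Hochberg over all genes tested, and every adjusted p below comes from that test. A gene that passed only through the group where it was high had to differ, so the counts that follow describe the members and give no support on their own. The call and adjusted p of such a gene likewise give no support on their own. Against WT this covers the rises of *Ccl5*, *Ccl17*, *Cxcl3*, *Cxcl10*, *Cxcl15*, *Il7*, *Il15* and *Il17d* among the members named below. In Atm-/- against WT, 28 members were tested, of which 17 were higher and 6 lower at an adjusted p under 0.05. Of all genes tested, 34.7% were higher and 33.6% lower, 68.4% in either direction. Requiring also a 2-fold change left 14 higher and 4 lower, against 12.6% and 9.85% of all genes. In Sirt6-/- against WT, 31 members were tested, of which 20 were higher and 3 lower, where 39.2% and 37.4% of all genes were, 76.6% in either direction. All 20 rises and 2 of the falls passed 2-fold, against 17.5% and 11.8% of all genes. Medians over the tested members were 0.92 and 2.18 on the log2 scale, beside 0.02 and 0.02 over all genes tested. Requiring at least 10 counts in every sample left 9 higher in each of these comparisons. The number tested and the share of all genes under that filter are not given here, so the 9 have no background beside them. Scaling by library totals alone moved the median of all genes to 0.18 and 0.11 and the split of all genes from 4611 higher and 4469 lower to 6156 and 3326 in Atm-/-, and from 5176 and 4938 to 5796 and 4317 in Sirt6-/-. The comparisons with WT share the same WT samples, so the knockouts were also compared directly. In Atm-/- against Sirt6-/-, 33 members were tested, 8 being higher and 19 lower in Atm-/-, where 38.0% and 37.8% of all genes were, 75.8% in either direction. Past 2-fold, 6 were higher and 15 lower in Atm-/-, against 11.3% and 14.2% of all genes, and the median was -0.63 beside 0.0021 over all genes tested. Without Sirt6-/- replicate 3, 10 members were higher past 2-fold, *Cxcl10*, *Cxcl17*, *Il11* and *Il24* being the additions. *Cxcl17* and *Il24* had no read in that sample and were not tested with all samples. They entered because the filter on low counts was rerun on fewer samples, which they passed through Atm-/-, where they were high. That count therefore gives no support on its own.

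**Figure D2:**
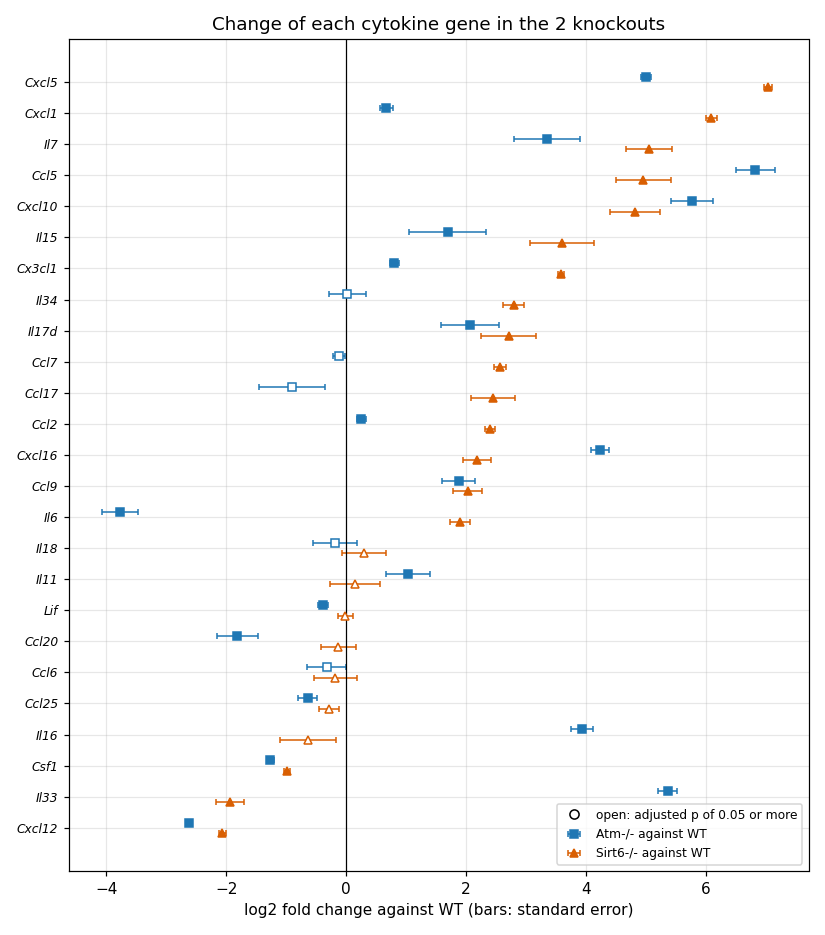
Log2 fold change of each member gene against WT in Atm-/- (squares) and Sirt6-/- (triangles), with bars for the standard error and open symbols for an adjusted p of 0.05 or more, for the 25 of the 27 genes tested in both comparisons. Cxcl5 and Cxcl10 were higher in both knockouts, Cxcl12 and Csf1 lower in both, and Il6 and Il33 changed in opposite directions.

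Of the 5 neutrophil-attracting ELR chemokines among the members, *Cxcl1* and *Cxcl5* were higher than WT in both knockouts and highest in Sirt6-/-. *Cxcl1* stood at 35.6, 26.2 and 30.9 CPM in WT, 49.0, 56.5 and 43.1 in Atm-/- and 1973, 2178 and 2162 in Sirt6-/-. No range overlapped another, and the log2 fold change against WT was 0.67 ± 0.11 (SE) in Atm-/- (adjusted p = 7.82e-05) and 6.09 ± 0.09 in Sirt6-/- (adjusted p = 3.34e-16), a 68.1-fold rise. *Cxcl5* stood at 2.63, 2.78 and 2.95 CPM in WT, 92.3, 91.7 and 85 in Atm-/- and 356, 360 and 376 in Sirt6-/-. Both knockouts lay above every WT sample, by 4.998 ± 0.09 on the log2 scale in Atm-/- (adjusted p = 3.74e-15) and 7.03 ± 0.07 in Sirt6-/- (adjusted p = 3.73e-18). *Cxcl1* and *Cxcl5* were lower in Atm-/- than in Sirt6-/- by log2 differences of -5.40 ± 0.07 (adjusted p = 2.07e-23) and -2.01 ± 0.04 (adjusted p = 1.36e-19).

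Their neighbours *Cxcl3* and *Cxcl15* were almost silent in WT and each was read mainly in 1 knockout. *Cxcl3* had 0.1254, 0.0639 and 0.0635 CPM in WT, no read in Atm-/- and 1.23, 0.927 and 1.23 CPM in Sirt6-/-. It rose in Sirt6-/- against WT by 3.68 ± 0.51 on the log2 scale (adjusted p = 1.28e-05) and was at least 13.0-fold higher there than in Atm-/-, taking 3 counts per library as the limit that 0 reads allow. *Cxcl15*, a chemokine known from lung epithelium, went the other way, with 0, 0.0639 and 0 CPM in WT, 2.94, 3.34 and 2.83 in Atm-/- and 0.153, 0.0618 and 0.450 in Sirt6-/-. The ratio of summed reads in Atm-/- to WT was 144, with a 95% exact interval of 39.53 to 1194 that covers counting error only, since WT had 2 reads. In the direct comparison *Cxcl15* was higher in Atm-/- by 3.75 ± 0.42 on the log2 scale (adjusted p = 6.37e-08), and by 4.78 without Sirt6-/- replicate 3. *Cxcl2*, with 2 NF-kB matches in its window, had 16 reads over all 9 samples and was not tested. How reads that match several of these related genes were counted is not given in the sources used here.

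**Figure D3:**
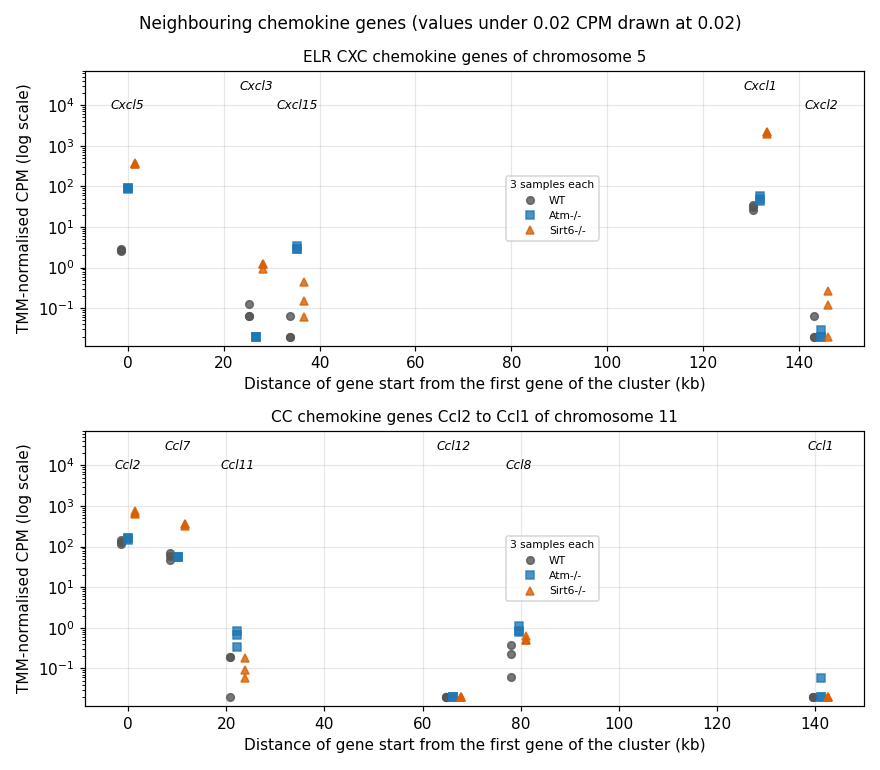
TMM-normalised CPM (log axis, values under 0.02 drawn at 0.02) of neighbouring chemokine genes in every sample, against the distance in kb of each gene's start from the first gene of its cluster, with the 3 genotypes offset slightly along the axis. In the upper panel Cxcl5 reached 376 CPM and Cxcl1 2178 CPM in Sirt6-/- while Cxcl3 and Cxcl2 stayed near or under 1 CPM, and in the lower panel Ccl2 and Ccl7 lay above 40 CPM in every sample while the other 4 genes stayed near or under 1 CPM.

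Among monocyte-attracting CC chemokines, *Ccl2* and its neighbour *Ccl7* on chromosome 11 rose in Sirt6-/-. *Ccl2*, the main ligand of Ccr2, stood at 147, 118 and 132 CPM in WT, 165, 144 and 167 in Atm-/- and 682, 767 and 641 in Sirt6-/-. The Sirt6-/- samples lay above all others, 2.40 ± 0.08 over WT on the log2 scale (adjusted p = 1.08e-12), whereas Atm-/- overlapped WT and exceeded it by 0.25 ± 0.08 (adjusted p = 0.00789). *Ccl7* stood at 70.1, 47.7 and 59.2 CPM in WT, 55.2, 54.3 and 54.0 in Atm-/- and 323, 358 and 367 in Sirt6-/-. It rose by 2.57 ± 0.10 on the log2 scale in Sirt6-/- (adjusted p = 9.63e-12), while its difference in Atm-/- was -0.12 ± 0.10 (adjusted p = 0.303). Without WT replicate 2 that difference was -0.26 (adjusted p = 0.00293), and without WT replicate 1 it was 0.02. The 4 other genes of this cluster were near 0, *Ccl12* without a read and *Ccl8* and *Ccl11* near or under 1 CPM. *Cx3cl1* on chromosome 8, the membrane-tethered ligand of Cx3cr1, stood at 37.1, 37.4 and 39.3 CPM in WT, 60.1, 74.7 and 65.2 in Atm-/- and 456, 469 and 442 in Sirt6-/-. Its groups did not overlap, and it rose by 0.81 ± 0.08 on the log2 scale in Atm-/- (adjusted p = 3.1e-07) and 3.59 ± 0.05 in Sirt6-/- (adjusted p = 1.79e-16). All 3 genes were lower in Atm-/- than in Sirt6-/-, *Ccl2* by -2.13 ± 0.06, *Ccl7* by -2.67 ± 0.05 and *Cx3cl1* by -2.77 ± 0.06 on the log2 scale (adjusted p = 6.72e-18, 7.77e-21 and 6.26e-20).

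The other CC chemokines were at low levels and did not share 1 pattern. *Ccl5*, which attracts T cells and monocytes, had 2 reads in each WT sample, 8.88, 7.62 and 6.38 CPM in Atm-/- and 1.93, 1.98 and 2.34 in Sirt6-/-. It was higher in Atm-/- (6.82 ± 0.33) and in Sirt6-/- (4.96 ± 0.46) than in WT on the log2 scale (adjusted p = 1.45e-10 and 1.57e-07), both rises resting on those few WT reads, and higher in Atm-/- than in Sirt6-/- by 1.88 ± 0.18 (adjusted p = 7.99e-09). *Ccl9*, a rodent ligand of Ccr1, rose from 0.895 to 1.54 CPM in WT to 3.17 to 5.39 in Atm-/- and 4.72 to 4.88 in Sirt6-/-, log2 differences of 1.88 ± 0.27 and 2.03 ± 0.24, and the knockouts overlapped. *Ccl17*, a ligand of Ccr4, stood at 0.502, 0.256 and 0.381 CPM in WT, 0.202, 0.114 and 0.295 in Atm-/- and 2.21, 1.73 and 2.34 in Sirt6-/-, a rise of 2.45 ± 0.36 on the log2 scale in Sirt6-/- (adjusted p = 2.2e-05). *Ccl20*, the ligand of Ccr6, fell in Atm-/- by 1.81 ± 0.34 on the log2 scale (adjusted p = 0.00028), from 5.24, 1.89 and 4.82 CPM in WT to 1.33, 0.999 and 1.09, with 3.44, 4.23 and 3.27 CPM in Sirt6-/-. Its Sirt6-/- difference from WT was -0.13 ± 0.30 (adjusted p = 0.709), and without WT replicate 2, the lowest, it was -0.48 (adjusted p = 0.0359). *Ccl25*, the ligand of Ccr9, stood at 6.13 to 8.95 CPM in WT, 4.64 to 5.28 in Atm-/- and 5.91 to 6.81 in Sirt6-/- and was lower in Atm-/- than in WT by a log2 difference of -0.64 ± 0.16 (adjusted p = 0.00292). Its difference from WT in Sirt6-/- was -0.28 (adjusted p = 0.121), which became -0.43 (adjusted p = 0.0213) without WT replicate 3. *Ccl6* was at 0.690 to 1.54 CPM in all samples and passed the test in no comparison, and it overlaps the listed gene *E230016K23Rik*, from which its reads cannot be told apart as no strand is stated.

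Of the other CXC chemokines, the T cell attractants *Cxcl10* and *Cxcl16* were higher in both knockouts and highest in Atm-/-. *Cxcl10*, an interferon-induced ligand of Cxcr3, stood at 0.0627, 0.0639 and 0.317 CPM in WT, 8.80, 7.08 and 8.95 in Atm-/- and 4.23, 3.92 and 4.62 in Sirt6-/-. *Cxcl16*, the transmembrane ligand of Cxcr6, stood at 1.44, 0.895 and 1.27 CPM in WT, 23.5, 21.7 and 23.1 in Atm-/- and 4.82, 5.44 and 6.09 in Sirt6-/-. None of these ranges overlapped. On the log2 scale *Cxcl10* rose by 5.76 ± 0.35 in Atm-/- and 4.81 ± 0.41 in Sirt6-/-, and *Cxcl16* by 4.23 ± 0.15 and 2.18 ± 0.23. Without WT replicate 3, which held most of the WT reads of *Cxcl10*, its rises were 6.94 and 5.98. Atm-/- exceeded Sirt6-/- by 0.96 ± 0.15 for *Cxcl10* (adjusted p = 8.57e-06) and 2.07 ± 0.11 for *Cxcl16* (adjusted p = 4.04e-13). *Cxcl16* overlaps the listed gene *Zmynd15*, which held 566 reads beside its own 3009.

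*Cxcl12*, the constitutive stromal ligand of Cxcr4 that retains haematopoietic cells in their niche, was the member with the largest fall in CPM. It stood at 2308, 2067 and 2213 CPM in WT, 364, 337 and 375 in Atm-/- and 503, 497 and 572 in Sirt6-/-. The genotypes did not overlap, and it fell by 2.62 ± 0.05 on the log2 scale in Atm-/- (adjusted p = 1.91e-14) and by 2.07 ± 0.06 in Sirt6-/- (adjusted p = 2.62e-13), Atm-/- lying below Sirt6-/- by a difference of -0.54 ± 0.05 (adjusted p = 3.55e-09). *Csf1*, the macrophage growth factor, stood at 1347, 1417 and 1246 CPM in WT, 543, 537 and 601 in Atm-/- and 655, 659 and 702 in Sirt6-/-. It fell by 1.26 ± 0.06 on the log2 scale in Atm-/- (adjusted p = 5.13e-11) and by 0.99 ± 0.05 in Sirt6-/- (adjusted p = 2.27e-10). *Il34*, the other ligand of the Csf1 receptor, was not called lower in either knockout, standing at 1.599, 1.73 and 1.78 CPM in WT, 2.45, 1.11 and 1.62 in Atm-/- and 12.1, 9.79 and 13.4 in Sirt6-/-. Its log2 difference from WT was 2.79 ± 0.17 in Sirt6-/- (adjusted p = 1.77e-09) and 0.02 in Atm-/- (adjusted p = 0.966).

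The cytokines that signal through gp130 (*Il6st*) separated the knockouts. *Il6*, the major inducer of the acute phase, stood at 5.52, 8.95 and 5.65 CPM in WT, 0.692, 0.428 and 0.354 in Atm-/- and 24.1, 29.3 and 21.9 in Sirt6-/-. Every Atm-/- sample lay under and every Sirt6-/- sample over the WT range. It fell by 3.77 ± 0.30 on the log2 scale in Atm-/- (adjusted p = 3.89e-08) and rose by 1.90 ± 0.17 in Sirt6-/- (adjusted p = 7.95e-08), so that the knockouts differed by -5.65 ± 0.19 (adjusted p = 1.62e-16). *Lif*, which keeps stem cells undifferentiated, moved little, from 66.7, 53.7 and 68.2 CPM in WT to 47.4, 44.7 and 52.9 in Atm-/- and 61.5, 75.9 and 49.2 in Sirt6-/-. It fell by 0.39 ± 0.09 on the log2 scale in Atm-/- (adjusted p = 0.00145), and the difference in Sirt6-/- was -0.01 ± 0.13 (adjusted p = 0.925). *Il11* stood at 0.847, 0.607 and 0.444 CPM in WT, 1.64, 1.20 and 1.06 in Atm-/- and 0.521, 0.711 and 0.870 in Sirt6-/-. Its rise of 1.03 ± 0.37 in Atm-/- (adjusted p = 0.0222) was lost without WT replicate 3 (adjusted p = 0.0879) and without Atm-/- replicate 1 (adjusted p = 0.104).

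*Il33*, an IL-1 family alarmin held in the nucleus and released from damaged cells, had the largest difference between the knockouts among the members read in every sample. It stood at 5.36, 4.99 and 4.41 CPM in WT, 185, 258 and 166 in Atm-/- and 1.10, 1.61 and 1.14 in Sirt6-/-. The groups did not overlap, with a rise of 5.36 ± 0.16 on the log2 scale in Atm-/- (adjusted p = 6.86e-13), or 41.1-fold, a fall of 1.94 ± 0.23 in Sirt6-/- (adjusted p = 2.29e-06) and a difference of 7.31 ± 0.17 between Atm-/- and Sirt6-/- (adjusted p = 3.99e-19). *Il18*, of the same family, was at 0.767 to 2.26 CPM in all samples and passed the test in no comparison, and it overlaps *Bco2*, which held 67 reads. *Il16*, a chemoattractant of CD4+ cells, was likewise high in Atm-/-, with 0.627, 0.703 and 0.571 CPM in WT, 9.37, 9.93 and 10.0 in Atm-/- and 0.552, 0.185 and 0.480 in Sirt6-/-. It rose by 3.93 ± 0.19 on the log2 scale in Atm-/- (adjusted p = 1.46e-10), and its difference in Sirt6-/- was -0.64 (adjusted p = 0.226).

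The lymphocyte survival factors *Il7* and *Il15*, which act through the common gamma chain, were lowest in WT and highest in Sirt6-/-. *Il7* stood at 0.0314, 0.192 and 0.190 CPM in WT, 0.865, 2.08 and 1.36 in Atm-/- and 5.03, 5.07 and 3.96 in Sirt6-/-, and *Il15* at 0.439, 0.192 and 0, then 0.721, 0.713 and 0.650, then 2.27, 2.90 and 2.64. No range overlapped another. Against WT, *Il7* rose by 3.34 ± 0.55 on the log2 scale in Atm-/- and 5.05 ± 0.38 in Sirt6-/-, and *Il15* by 3.60 ± 0.54 in Sirt6-/- (adjusted p = 2.38e-05), which was 4.70 without WT replicate 1 and 3.02 without WT replicate 3. For *Il15* in Atm-/- the log2 difference was 1.69 ± 0.64 (adjusted p = 0.0297), and the call was lost on leaving out WT replicate 3 (adjusted p = 0.0852) or Atm-/- replicate 1, 2 or 3 (adjusted p = 0.0786, 0.0693 and 0.0584), while without WT replicate 1 the difference was 2.81. *Il17d*, of the IL-17 family, stood at 0.1254 to 0.540 CPM in WT, 0.913 to 1.41 in Atm-/- and 1.44 to 2.29 in Sirt6-/-, higher than WT by 2.06 ± 0.49 and 2.71 ± 0.46 on the log2 scale (adjusted p = 0.0017 and 8.89e-05). Without WT replicate 3 these were 2.90 and 3.53.

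Below 1 CPM, 6 further members were tested. In the comparisons given here, each passed the filter on low counts only through the group where it was high. These calls therefore give no support on their own. The granulocyte factors *Csf2* and *Csf3* were read most in Sirt6-/-, *Csf2* with 71 reads there, 36 in Atm-/- and none in WT, a difference of at least 7.60-fold between Sirt6-/- and WT. *Csf3* was higher in Sirt6-/- than in WT by 1.76 on the log2 scale (adjusted p = 0.00329). *Ccl3* had 47 reads in Sirt6-/- and none in Atm-/-, at least 5.50-fold more, and *Il1a* was higher in Sirt6-/- than in WT by 1.92 (adjusted p = 0.0265), a call that was lost without any 1 of the samples except WT replicate 2. In Atm-/-, *Ccl8* and *Ccl11* were higher than in WT by 2.01 and 2.22 on the log2 scale (adjusted p = 0.00288 and 0.00929), the latter call being lost without Atm-/- replicate 1.

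Receptor genes were also read, from a list of 71 that was chosen for the pathway. At an adjusted p under 0.05, 9 were higher and 19 lower of 41 tested in Atm-/- against WT, 19 and 15 of 42 in Sirt6-/- against WT, and 6 and 23 of 37 in Atm-/- against Sirt6-/-. In either direction that was 28 of 41, 34 of 42 and 29 of 37, near the 68.4%, 76.6% and 75.8% of all genes called, so these totals are no result about the receptors. By direction, 21.95% were higher and 46.34% lower in Atm-/- against WT, where 34.7% and 33.6% of all genes were. In Sirt6-/- against WT it was 45.24% and 35.71%, beside 39.2% and 37.4%. Between the knockouts it was 16.22% and 62.16%, beside 38.0% and 37.8%. The list was chosen with earlier results of these data known, so these splits give no support on their own. The log2 changes that follow all passed the test. Some of these genes, such as *Il3ra*, *Il13ra2* and *Csf2ra* against WT, passed the filter on low counts only through the group where they were high. So did *Il22ra1* and *Ccr7* in Sirt6-/- against WT. Such calls give no support on their own. The summed level of the listed receptors was 1306 to 1346 CPM in WT, 1320 to 1351 in Atm-/- and 4484 to 4876 in Sirt6-/-. In Sirt6-/- that sum lay mainly in *Il1rl1* and *Il6st*, with means of 2104 and 1045 CPM beside 56.56 and 246 in WT. *Il1rl1*, the receptor of Il33, stood at 60.5, 51.2 and 58.0 CPM in WT, 474, 431 and 448 in Atm-/- and 2093, 2323 and 1897 in Sirt6-/-. It was thus highest in the genotype with the least *Il33*, its rise over WT being 5.22 on the log2 scale in Sirt6-/- and 2.99 in Atm-/-. *Ackr3*, a scavenging receptor of Cxcl12, stood at 1.76, 2.21 and 1.40 CPM in WT, 21.1, 23.0 and 24.2 in Atm-/- and 67.3, 75.1 and 67.4 in Sirt6-/-, log2 rises of 3.66 and 5.29. *Il13ra2*, a decoy receptor of Il13, and *Il3ra* completed the 4 largest rises in Sirt6-/- (7.51 and 6.16) and rose in Atm-/- as well (3.94 and 4.71), where *Csf2ra* led with 5.02. The largest falls in Atm-/- were those of *Il17re* (-4.28), *Csf1r* (-3.43), *Ccr1* (-1.51) and *Il17rd* (-1.32). *Csf1r*, the receptor of Csf1 and Il34 and a gene of macrophages, stood at 7.90, 7.38 and 7.84 CPM in WT, 0.606, 0.656 and 0.886 in Atm-/- and 1.90, 2.97 and 1.499 in Sirt6-/-. In Sirt6-/- it was among the 4 largest falls (-1.86) with *Il17re* (-2.18), *Ccr7* (-4.53) and *Il22ra1*, which had 3415 reads in WT and 2 in Sirt6-/-, a ratio of 1773 with a counting interval of 490.5 to 14650. Between the knockouts the differences far below 0 included those of *Il13ra2* (-3.56), *Il2rg* (-3.22) and *Il6st* (-2.50), and those furthest above 0 were those of *Il22ra1* (9.90), *Ccr7* (4.001), *Il18rap* (1.75) and *Csf2ra* (1.27). *Il6st*, the gp130 chain shared by Il6, Il11 and Lif, stood at 261, 236 and 241 CPM in WT, 193, 178 and 181 in Atm-/- and 1084, 994 and 1055 in Sirt6-/-. *Cxcr2*, the receptor of the ELR chemokines, was named after its values were seen and was at 3.48, 3.16 and 2.32 CPM in WT, 2.94 to 3.09 in Atm-/- and 1.53 to 1.88 in Sirt6-/-.

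Of 27 genes that regulate cytokine transcription, mRNA decay or signalling, all were tested, and 12 were higher and 7 lower in Atm-/-, 19 higher and 1 lower in Sirt6-/-, and 5 higher and 17 lower in Atm-/- against Sirt6-/-. The 19, 20 and 22 called in either direction were near the shares of all genes, 68.4%, 76.6% and 75.8%, while by direction 70.37% of the list was higher and 3.704% lower in Sirt6-/- where 39.2% and 37.4% of all genes were. The list was chosen with earlier results of these data known. Its split by direction therefore describes these genes and gives no support on its own. *Tlr2*, the receptor of bacterial lipopeptides, stood at 12.8, 10.0 and 12.8 CPM in WT, 10.7, 9.33 and 9.57 in Atm-/- and 278, 283 and 287 in Sirt6-/-, a log2 rise of 4.57 that led the list. *Zc3h12a*, a nuclease that degrades *Il6* mRNA, *Tlr3* and *Il1rn*, the antagonist of Il1, followed with 3.02, 3.02 and 2.89, and *Zfp36*, which speeds decay of cytokine mRNA, was the 1 that fell (-0.75). In Atm-/- the largest rises were those of *Fosl1* (2.86), *Tlr3* (1.65), *Jun* (0.89) and *Nfkbia* (0.83), and the largest falls those of *Cebpd* (-1.65), *Zfp36l1* (-0.76), *Stat3* (-0.62) and *Tlr4* (-0.56). *Cebpd*, a C/EBP factor of the acute phase, stood at 40.8, 40.7 and 39.8 CPM in WT, 12.9, 13.6 and 12.3 in Atm-/- and 181, 208 and 200 in Sirt6-/-. *Nfkb1*, an NF-kB subunit named after its values were seen, stood at 99.3, 96.0 and 93.8 CPM in WT, 96.0, 100 and 96.9 in Atm-/- and 413, 412 and 402 in Sirt6-/-. Between the knockouts *Tlr2* (-4.83), *Cebpd* (-3.91), *Il1rn* (-2.97) and *Zc3h12a* (-2.87) had the differences furthest below 0 and *Fosl1* (1.26), *Tnfaip3* (0.63), *Zfp36* (0.54) and *Jun* (0.39) those furthest above.

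**Figure D4:**
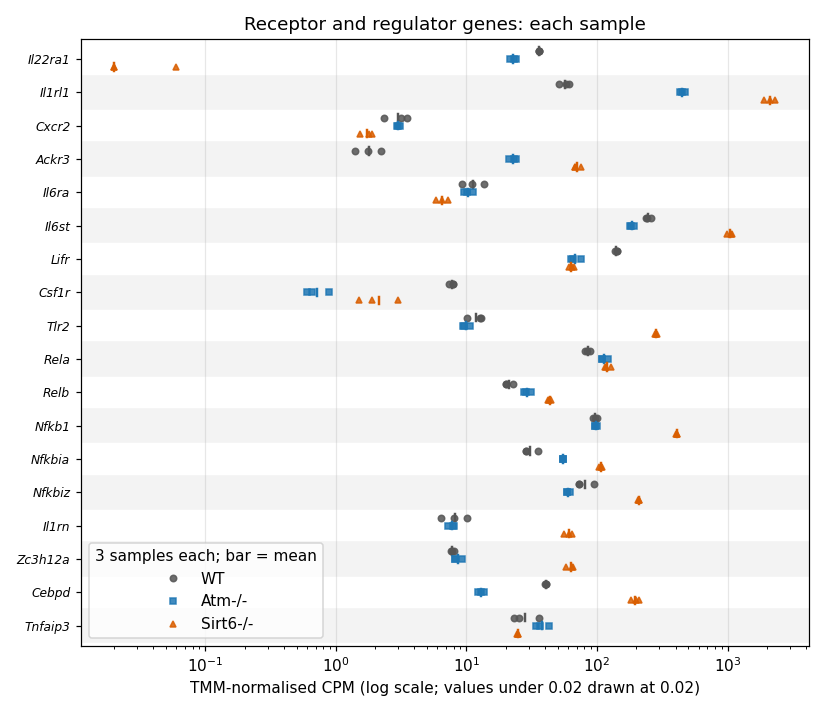
TMM-normalised CPM of 18 receptor and regulator genes in every sample on a log axis, with a bar at the mean of the 3 samples (values under 0.02 are drawn at 0.02). Il1rl1, Il6st, Tlr2, Nfkb1 and Cebpd were highest in Sirt6-/-, and Csf1r was lowest in Atm-/-.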

How the data were processed

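RNA of MEFs had been enriched for poly(A), fragmented and primed with random hexamers. Per the file headers, each of 9 deposited tables gives a read count per gene, as the authors counted it, and the RPKM the authors computed from it with the listed gene length. The submitters' processing notes name mm10. The aligner, the counting rule and the strand setting are not given in the sources used here. Even values made up 61.9 to 64.8% of counts from 1 to 10, and the reason was not tested. The counting intervals take each count as independent and would be too narrow if counts came in pairs.

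Counts were tested with edgeR 4.0.16 in R 4.3.3 (filterByExpr, TMM, glmQLFit, glmQLFTest, Benjamini-Hochberg over all genes tested), each comparison on its own 6 samples, with calls at an adjusted p under 0.05. The code was tested on simulated data. RPKM served to order genes. Depth was 32187040 to 33837949 counts, and intervals and the limit of 3 counts for 0 reads cover counting error only. No 2 samples were identical, and chi-square per gene within a genotype was 5.24 to 16.4. Same-numbered samples correlated at -0.0235 to 0.112 and others at -0.132 to 0.0882, so the numbers were not taken as pairs. Alternatives were DESeq2 1.42.0 (size factors and Wald test), library totals, no filter, at least 10 counts in every sample, all 9 samples in 1 fit, a replicate block and leaving out each sample. 

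Members with a mean of at least 1 CPM in a genotype were named with every sample, as were, of receptors and regulators, the 4 largest rises and falls among called genes of at least 1 CPM. The members and lists were chosen with earlier results of these data known. Promoter sequences and gene positions came from RefSeq on GRCm38.p6, the assembly of mm10. Of 14 leukocyte markers, 13 were matched. The value of 1 receptor gene selected by the rule on named genes is not reported here.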

Additional observations from a re-analysis of the deposited data

Results flagged for a closer look

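For 23 named members the knockouts differed in the direct test of Atm-/- against Sirt6-/- (edgeR, adjusted p under 0.05), which is also the difference of their effects against the shared WT samples. Values are log2 differences, with n = 3 samples in each knockout. *Il16*, *Cxcl15*, *Cxcl3* and *Ccl17* passed the filter on low counts only through the group where they were high. Their calls therefore give no support on their own. Higher in Atm-/- were *Il33* (7.31), *Il16* (4.58), *Cxcl15* (3.75), *Cxcl16* (2.07), *Ccl5* (1.88), *Cxcl10* (0.96) and *Il11* (0.90). Lower in Atm-/- were *Cxcl3* (-8.25, a fitted value that depends on the prior count, since Atm-/- had no read), *Il6* (-5.65), *Cxcl1* (-5.40), *Ccl17* (-3.34), *Cx3cl1* (-2.77), *Il34* (-2.76), *Ccl7* (-2.67), *Ccl2* (-2.13), *Cxcl5* (-2.01), *Il15* (-1.89), *Il7* (-1.70), *Ccl20* (-1.67), *Cxcl12* (-0.54), *Lif* (-0.36), *Ccl25* (-0.34) and *Csf1* (-0.26). For *Lif* the adjusted p was 0.00368 and became 0.069 without Sirt6-/- replicate 2. *Il11* (adjusted p = 0.029) was lost without 3 of the 6 samples in turn, with a replicate block and with the DESeq2 Wald test, and *Ccl25* (adjusted p = 0.0445) without 5 of the 6 and with 6 other alternatives. Groups of 3 were too small for a test of outlying samples.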

How the results depend on the processing

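Over 79 gene results, 958 of 1008 values under the alternatives kept their direction and side of the threshold, 25 lost and 5 gained a call and 20 changed sign, in 17 results. With at least 10 counts in every sample, members higher fell from 17 to 9 (past 2-fold from 14 to 6) in Atm-/- against WT and from 20 to 9 (past 2-fold from 20 to 9) in Sirt6-/- against WT, receptors called in the latter from 34 to 22, and members higher past 2-fold in Atm-/- against Sirt6-/- from 6 to 3, since that filter removes members near 0 in 1 group. The DESeq2 Wald test called 4 members lower past 2-fold in Sirt6-/- against 2, *Il12a* among them. Leaving out single samples gave 6 to 10 members higher past 2-fold in Atm-/- against Sirt6-/-, 14 to 19 higher in Atm-/- against WT and 19 to 20 higher in Sirt6-/- against WT. The filter on low counts was rerun each time, so the members tested changed as well. Except for library totals, the matching calls over all genes are not given for the alternatives. Counts under them show only how the calls of members moved.

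The replicate numbers did not pair the samples. A replicate block left 17 members higher and 6 lower in Atm-/-, 20 and 3 in Sirt6-/-, and 7 and 18 in Atm-/- against Sirt6-/-, where *Il11* (adjusted p = 0.0598) and *Ccl25* (adjusted p = 0.0559) were lost, and it turned *Il34* in Atm-/- to -0.0360.

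Signs turned only in differences that had not passed the test. Library totals gave 0.0417 for *Ccl7* in Atm-/- and 0.0760 for *Lif* in Sirt6-/-, which was 0.0018 with at least 10 counts in every sample. Leaving out single samples gave, in Atm-/- against WT, -0.26 to 0.0224 for *Ccl7*, -0.49 to 0.30 for *Il18* and -0.31 to 0.26 for *Il34*. In Sirt6-/- against WT it gave -0.48 to 0.11 for *Ccl20*, -0.35 to 0.0626 for *Ccl6*, -0.0630 to 0.40 for *Il11*, -0.0153 to 0.77 for *Il18* and -0.18 to 0.13 for *Lif*. In Atm-/- against Sirt6-/- it gave -0.37 to 0.0387 for *Ccl6* and -0.31 to 0.0578 for *Ccl9*. The cause was not tested. *Il15* in Atm-/- was not called by the DESeq2 Wald test (adjusted p = 0.0516), nor were *Lif*, *Il11* and *Ccl25* between the knockouts (adjusted p = 0.102, 0.0531 and 0.0845). *Ccl25* between the knockouts was also lost with library totals (adjusted p = 0.0927), no filter (0.0552), at least 10 counts in every sample (0.0502) and all 9 samples in 1 fit (0.0567). Depth limits what can be said of the 38 members tested in no comparison, of which 18 had no read and 20 had 1 to 58 reads over 9 samples.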
